A study of Mus musculus with 2 samples.

Results

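The genes described here encode enzymes of the route from acetyl-CoA through mevalonate to squalene epoxide, the early steps of cholesterol synthesis, as measured in choline-deprived 661W cells. They were taken by name: every non-control spot of both arrays whose gene name was Acat2, Hmgcs1, Mvk, Pmvk, Mvd, Idi1, Fdps, Fdft1 or Sqle. This gave 9 genes with 13 spots, each spot a different probe, out of 43020 non-control spots. All 9 genes were among the 19816 genes measured on both arrays, where measured means at least 1 probe well above background by the scanner software's call and not saturated on either array. The naming rule used no measured value, but earlier results of these data were known when the genes were chosen.

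661W is a mouse cell line with cone photoreceptor features, grown out of a retinal tumour of a mouse whose transgene expressed a viral T antigen under a photoreceptor gene's promoter. The cells were kept in DMEM/F12 with penicillin, streptomycin and 10% fetal bovine serum and then held for 3 days in medium without choline or in medium with choline, which the labels put at 8.98 g/L, a unit that may be in error and could not be checked here; the labels do not say whether serum was present during those days. The design text speaks of total RNA pooled from 4 dishes, without saying whether per condition, and 1 Agilent single-colour array of each condition, both on 1 slide, was deposited. With 1 choline-deficient and 1 choline-sufficient array there is no replicate check, no test across samples and no p-value, and every direction rests on the labels.

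Levels are log2 processed signals relative to the 75th percentile of the array, and differences are the choline-deficient minus the choline-sufficient level. The value after ± is the scanner software's error of the array measurement, with a median of 0.20 over all measured probes; it does not cover variation between cultures. Over 268 probes with at least 8 usable spots each, the SD of the difference between spots of 1 probe had a median of 0.05. On the choline-deficient array 70.7% and on the choline-sufficient array 68.5% of non-control spots were well above background, and 0 spots were saturated. Of 10 cone markers 5 were measured; the opsin gene Opn1sw, the channel gene Cngb3 and the transcription factor gene Crx did not clear background on either array. Of 6 rod markers 2 were measured, and Nrl was among the others. The summed linear level of the measured cone markers was 0.415 on the choline-deficient and 0.279 on the choline-sufficient array, with 2 at least 1.5-fold higher and 0 lower, and that of the rod markers was 0.0128 and 0.0113, with 1 higher and 0 lower. Of all measured genes 14.8% were that much higher and 14.1% lower. The higher rod gene, Sag, was dim, with levels of -6.97 and -7.75 on the choline-deficient and choline-sufficient arrays. Of the higher cone genes Pde6h was also dim, at -7.29 and -8.16, and Gngt2 was brighter, at -2.66 and -3.39. The photoreceptor label is therefore only partly borne out by these markers.

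Mevalonate synthesis condenses acetyl-CoA units into a branched acid, which is phosphorylated and decarboxylated into the isoprene unit isopentenyl diphosphate. Isoprene units are joined into farnesyl diphosphate, pairs of which form squalene, the first molecule committed to sterols, while farnesyl diphosphate also feeds protein prenylation, ubiquinone and dolichol. The genes of the route are textbook targets of the transcription factor SREBP2, which is released from the endoplasmic reticulum when membrane sterol is low and acts with NF-Y and Sp1. The neural retina makes part of its own cholesterol by this route.

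All 9 genes and all 13 probes had a positive difference, larger than its scanner error for each gene but Mvd. At a size of 1.5-fold 7 of the 9 were higher and 0 lower, where 14.8% of all measured genes passed that size upward and 14.1% downward. At 2-fold 3 of the 9 were higher and 0 lower, against 7.67% and 3.88% of all genes. The number of the 9 at least 2-fold higher was 5 with spike-in scaling, which adds 0.27 to every gene. It was 2 after normexp background correction. Shares of all genes at 2-fold were not worked out for these settings, so neither count has a background to be set against. The median of the 9 differences was 0.81, and that of all measured genes was -0.10. These background shares move with the scaling: scaled to the arrays' medians, 12.0% of genes were higher and 20.3% lower, and scaled to spike-in probes 24.2% were higher and 5.96% lower. The median of all genes shifted by -0.12 with the first and by 0.27 with the second. The distance between the median of the 9 genes and that of all genes was 0.91; these scalings add a constant to every gene and cannot move it, and it was 0.88 after normexp and 1.04 after quantile normalization. In RNA taken from whole dishes, a change in the share of cells of a kind and a change in RNA per cell cannot be told apart.

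**Figure D1:**
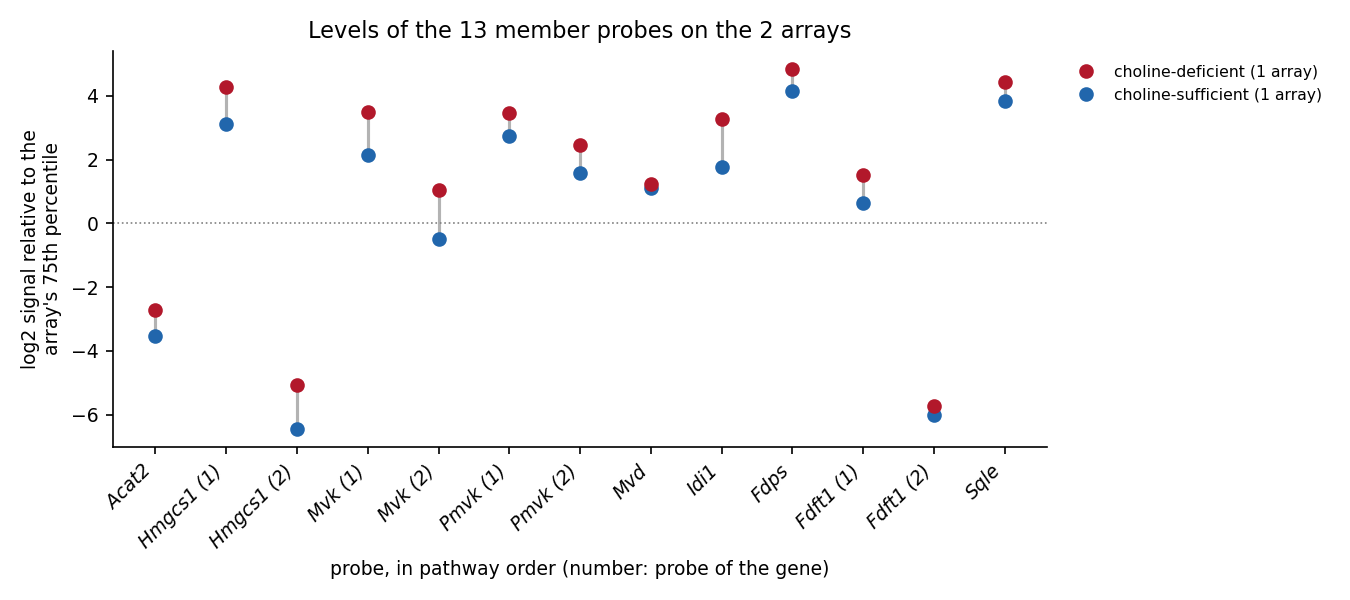
Log2 signal of the 13 probes of the 9 genes relative to each array's 75th percentile (vertical axis), in the order of the pathway (horizontal axis); red points are the choline-deficient array and blue points the choline-sufficient array, 1 array each, joined by a grey line. The red point lies above the blue one for all 13 probes, with the widest gaps at Hmgcs1, Mvk and Idi1 and the narrowest at Mvd.

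The route opens with Acat2, the cytosolic thiolase that joins acetyl-CoA units into acetoacetyl-CoA. Its single probe (NM_009338, chr17:13136482-13136541 on the minus strand of mm9, the build of the array's files) gave a level of -2.72 on the choline-deficient and -3.53 on the choline-sufficient array, from processed signals of 245 and 110.5. The difference was 0.82 ± 0.20, or 1.76-fold higher.

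Hmgcs1 encodes the cytosolic synthase that adds a further acetyl unit to give HMG-CoA. It had 2 probes (NM_145942), which the files place on the unplaced mm9 sequence chr13_random, at chr13_random:114793-114852 and chr13_random:114558-114617 on the minus strand. The first gave levels of 4.27 and 3.12 on the choline-deficient and choline-sufficient arrays, a difference of 1.15 ± 0.20. The second was dim on both arrays, with processed signals of 47.7 and 14.8 where the lowest signals well above background were 4.16 and 4.26, and its difference was 1.36 ± 0.22. The 2 differences were 0.21 apart with an error of 0.30, so the probes did not differ beyond the scanner error. That error was wider than the SD of the difference between spots of 1 probe, whose median was 0.05. The mean of both probes was 1.25 ± 0.21, or 2.38-fold higher. The first 30 of the 60 bases of each probe are shown, because the mean gives the bright and the dim probe the same weight. No base is singled out, so both are in lower case.
Hmgcs1 probe at 114793: agtaattttaacgtttgggtgccaagaagt
Hmgcs1 probe at 114558: gttggttactcatttgcttagtcttcaaac

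Mvk and Pmvk encode the kinases that phosphorylate mevalonate in turn. Mvk had 2 probes (NM_001306205, plus strand, chr5:114910540-114910599 and chr5:114910299-114910358). The first gave levels of 3.50 and 2.15 on the choline-deficient and choline-sufficient arrays, a difference of 1.35 ± 0.20. The second gave 1.05 and -0.48, a difference of 1.53 ± 0.20. Both probes thus showed a difference of similar size, with a gap of 0.18 between them and an error of 0.29. The gene value of 1.44 ± 0.20, or 2.71-fold higher, was second among the 9 genes. Pmvk was lower in that order, with levels of 3.47 and 2.74 at its first probe (NM_026784, chr3:89272867-89272926, plus strand) and 2.47 and 1.57 at its second (chr3:89272739-89272798). Its probe differences of 0.73 and 0.90 gave a mean of 0.81 ± 0.20, or 1.76-fold higher.

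Mvd, which encodes the decarboxylase that turns mevalonate diphosphate into isopentenyl diphosphate, had the smallest difference of the 9 genes. Its single probe (NM_138656, chr8:124957750-124957809, minus strand) gave 1.22 on the choline-deficient and 1.103 on the choline-sufficient array, with processed signals of 3755 and 2748. The difference of 0.12 ± 0.20, or 1.09-fold, was smaller than its error, and 6835 of the measured genes had a larger one. With the arrays scaled to their medians it was 0.0002. The next step is run by the isomerase encoded by Idi1, which converts isopentenyl diphosphate into the dimethylallyl diphosphate that starts each chain. Its single probe (NM_145360, chr13:8891524-8891583, plus strand) gave 3.26 on the choline-deficient and 1.76 on the choline-sufficient array, from processed signals of 15433 and 4333. The difference of 1.502 ± 0.20, or 2.83-fold higher, was the largest of the 9 under the main processing, and 688 of the 19816 measured genes had a larger one. Consecutive steps of the route therefore held both the smallest and the largest difference. The opening bases of these 2 probes are given because each gene rests on 1 probe.
Mvd probe at 124957750: tttctgaagggctagctgacccactcgatg
Idi1 probe at 8891524: ctaatttcttgctaactctgaacagttgat

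Fdps encodes the synthase that builds farnesyl diphosphate, the branch point toward sterols and prenyl groups. Its probe (NM_001253751, chr3:88897549-88897608, minus strand) gave 4.85 and 4.15 on the choline-deficient and choline-sufficient arrays, and the difference was 0.70 ± 0.20, or 1.63-fold higher. This was the one probe among the 13 that shared a run of 20 or more bases with probes of other names. It shared runs of 31, 31 and 27 bases with 3 probes named by transcript or array identifiers rather than symbols, whose differences were 0.69, 0.72 and 0.70. The 4 probes gave nearly the same difference, and how far their signals come from the same RNA was not tested. The Fdps value is therefore uncertain as a measure of that gene alone. The 30 bases that open the Fdps probe are shown for that reason.
Fdps probe at 88897549: tcttcatggaacttgcaaacaagatctaca

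Fdft1 encodes squalene synthase, which joins farnesyl diphosphate units head to head and commits them to sterols. Its 2 probes (NM_010191, minus strand) were the only pair of a member to differ by more than their error. The first is placed over 4241 bases of mm9 for 60 bases of probe (chr14:63765750-63769990), and gave levels of 1.51 and 0.64 and a difference of 0.87 ± 0.20. The second (chr14:63764562-63764621) was dim, with processed signals of 30.7 and 20.1, and a difference of 0.28 ± 0.22. The gap between them was 0.59 with an error of 0.30. The mean of 0.58 ± 0.21, or 1.49-fold, fell just under the 1.5-fold size used for counting, whereas the first probe alone was 1.83-fold higher. The first 30 bases of the first probe are shown, since the choice between them decides on which side of 1.5-fold the gene falls.
Fdft1 probe at 63765750: agagatttatcactggatccccaactcaga

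Sqle encodes squalene epoxidase, an oxygen-dependent step that is a known control point of the route. Its probe (NM_009270, chr15:59162688-59162747, plus strand) gave 4.43 on the choline-deficient and 3.84 on the choline-sufficient array. The difference of 0.59 ± 0.20, or 1.504-fold higher, lay just above the counting size. Sqle and Fdft1 were thus on opposite sides of that size with differences only 0.01 apart.

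**Figure D2:**
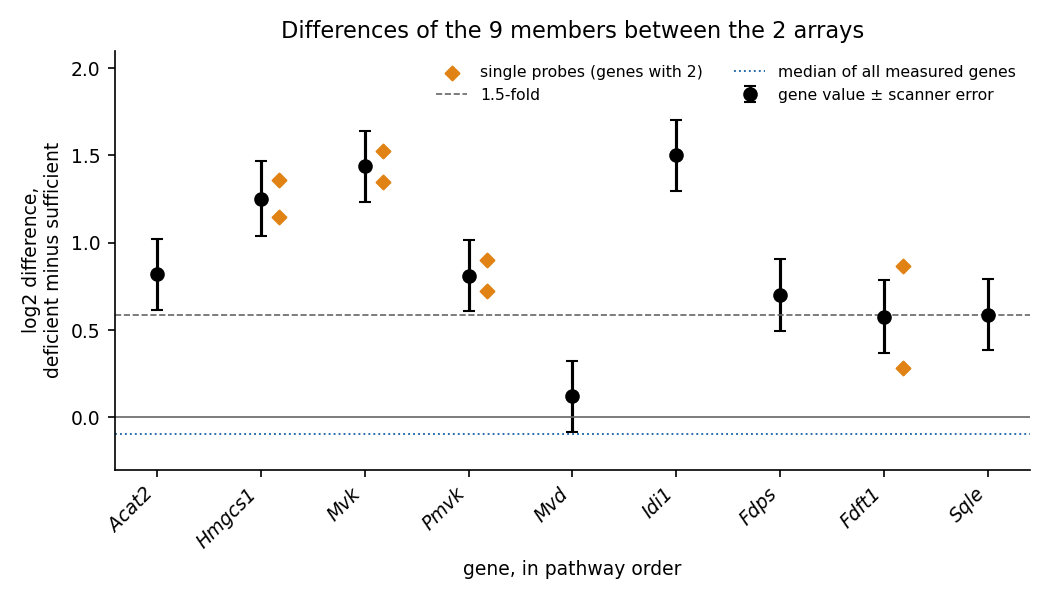
Log2 difference of each of the 9 genes, choline-deficient minus choline-sufficient (vertical axis), in pathway order (horizontal axis); black points with bars are gene values ± the scanner error, orange diamonds the single probes of the 4 genes that have 2, the dashed line is 1.5-fold and the dotted line the median of all measured genes (-0.10). Idi1, Mvk and Hmgcs1 lie between 1.25 and 1.502, Mvd at 0.12 overlaps 0, and the orange diamonds of Fdft1 lie on opposite sides of the 1.5-fold line.

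Ranked by difference, the order was Idi1, Mvk, Hmgcs1, Acat2, Pmvk, Fdps, Sqle, Fdft1 and Mvd. Of the 8 gaps between neighbours in this order, 2 exceeded the error of the gap and 0 exceeded it more than 2 times. They were the gap of 0.43 ± 0.30 between Hmgcs1 and Acat2 and the gap of 0.46 ± 0.29 between Fdft1 and Mvd. The others ran from 0.01 to 0.19 with errors of about the same size, 0.29 to 0.30, so the order within the upper group of 3 genes and within the group from Acat2 to Fdft1 was not resolved. In the percentile of all measured genes' differences, Idi1 stood at 96.5, Mvk at 96.1, Hmgcs1 at 94.8, Acat2 at 90.01, Pmvk at 89.9, Fdps at 87.9, Sqle at 85.3, Fdft1 at 85.0 and Mvd at 65.5.

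Other genes encode enzymes of the same reactions, and their values differed from gene to gene. Acat1, the mitochondrial thiolase, had a positive difference like Acat2, 0.58 ± 0.20 or 1.497-fold, just under the counting size. Idi2, a second isomerase gene, was measured by 1 of its 3 probes at processed signals of 9.93 and 12.7, with a difference of -0.69 ± 0.26, or 1.61-fold lower, opposite in sign to Idi1.

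The later sterol enzymes, which act on squalene epoxide, were higher as well. Of 11 genes, all measured, 7 were at least 1.5-fold higher and 0 lower, against 14.8% and 14.1% of all measured genes. Their median was 0.69, with a range from -0.22 to 2.11. The number higher was 5 with median scaling and 5 after normexp, against 12.0% and 8.42% of all genes. With spike-in scaling it was 9, against 24.2%. Among the largest differences were 2.11 ± 0.20 for Nsdhl and 1.94 ± 0.20 for Cyp51, both of sterol demethylation. The reductase gene Tm7sf2 had 1.56 ± 0.20. Lbr, at -0.22, was the one gene of this list with a negative difference, and it was 0.05 when the arrays were scaled to spike-in probes. Sc5d, a desaturase gene, had 0.10 and turned to -0.02 with median scaling.

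The genes that draw isoprenoid diphosphates away from sterols did not share the shift. Of 12 genes, all measured, 0 were at least 1.5-fold higher and 1 was lower, against 14.8% and 14.1% of all measured genes. Their median was -0.10, the same as that of all measured genes to 2 decimals. Positive differences, up to 0.42, were found in 4 of the 12 and negative ones in 8. Rabggtb, a subunit of the enzyme that prenylates Rab proteins, had -0.52 ± 0.20. Ggps1, the geranylgeranyl diphosphate synthase gene that takes farnesyl diphosphate directly from the route, had -0.51 ± 0.20, with its 3 probes between -0.58 and -0.40. Nus1, a subunit of the dolichol chain synthase, had -0.42 ± 0.20, from probes at -0.79 and -0.06 that did not give the same size. The sign of these 3 genes was negative under each setting tried. The median of the 12 was 0.17 with spike-in scaling and 0.01 after cyclic loess. With these settings the median of all measured genes was 0.18 and -0.01. The counts turned with the scaling, to 0 higher and 3 lower with median scaling and to 2 higher and 0 lower with spike-in scaling. The shares of all genes turned too, to 12.0% higher and 20.3% lower with median scaling. With spike-in scaling they were 24.2% and 5.96%.

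Next to the first step, Acss2, which makes cytosolic acetyl-CoA from acetate, had a difference of 1.81 ± 0.21, and Slc25a1, the exporter of mitochondrial citrate, 0.92 ± 0.20. The ketone body genes Bdh1 and Oxct1 had -0.68 ± 0.22 and 0.42 ± 0.20. Of the 6 genes of acetyl-CoA supply and ketone bodies, 2 were at least 1.5-fold higher and 1 lower, with a median of 0.19. The shares of all measured genes at this size were 14.8% higher and 14.1% lower. Among 8 genes of SREBP control, 4 were at least 1.5-fold higher and 0 lower, against the same 14.8% and 14.1%. Their median was 0.60, and 3 of the 8 had a negative difference. The 4 higher genes were the sterol carrier gene Stard4, at 1.30 ± 0.21, Insig1, which retains the SREBP escort protein in the endoplasmic reticulum, at 1.29 ± 0.20, and the factor genes Srebf1 and Srebf2, at 0.71 ± 0.20 and 0.66 ± 0.20. After normexp Srebf1 was 0.55 and Srebf2 0.46, both under 1.5-fold. With that setting 2 of the 8 genes were counted as higher, against 8.42% of all genes.

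**Figure D3:**
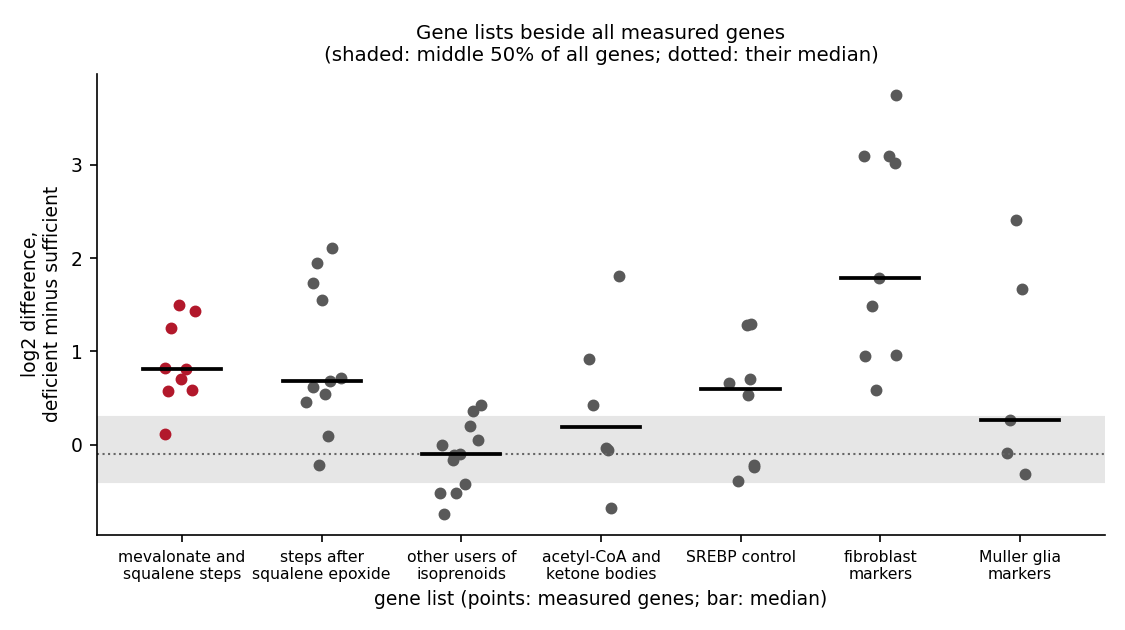
Log2 difference, choline-deficient minus choline-sufficient (vertical axis), of each measured gene (point) of 7 lists (horizontal axis), with the list's median as a bar; the shaded band is the middle 50% of all 19816 measured genes and the dotted line their median. The red points are the 9 genes described here, with 8 of them above the band; the 12 other users of isoprenoids centre on the dotted line, and the fibroblast markers reach 3.75.

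Fibroblast markers were also higher on the choline-deficient array. Of 10 fibroblast markers 9 were measured, all of them higher on the choline-deficient array. By at least 1.5-fold 8 were higher, against 14.8% of all measured genes, and after normexp 6 were, against 8.42%. The summed linear level of the 9 relative to the 75th percentile was 82.5 on the choline-deficient array and 10.1 on the choline-sufficient one. The sum mostly reflects Col1a2, the brightest, with log2 levels of 5.96 and 2.87, ahead of Col3a1 at 3.55 and 0.53. Col1a2 had a difference of 3.09, the median of the 9 was 1.79, and 6 of the 9 were at least 2-fold higher, against 7.67% of all genes. Lum, a fibroblast gene, was well above background on neither array, and the dim fibroblast genes Thy1, Fap and Dcn had differences of 0.06, 0.19 and 0.04 after normexp background correction. Of 8 Muller glia markers 5 were measured, with a median of 0.26. At least 1.5-fold higher were 2 (Sox9 at 2.41 and Slc1a3 at 1.67) and 0 were lower, against 14.8% and 14.1% of all genes. Aqp4 and Gfap had negative differences of -0.32 and -0.09, and that of Gfap was 0.18 with spike-in scaling. The summed glial level was 2.63 and 1.26. Kcnj10 and Sox2, both glial, did not clear background on either array, and Rlbp1 cleared it on 1 array. The part of these markers in the differences of the 9 genes was not tested.

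Start-site sequence was found for 6 of the 9 genes, Acat2, Hmgcs1, Mvk, Pmvk, Mvd and Idi1, in RefSeq on GRCm38.p6, with 7 windows of 250 bases before and 50 after a start, Pmvk having 2. Each window was searched on both strands for TCACNCCA and TCACNTGA, which resemble sterol elements, CCAAT, the core of the NF-Y box, GGGCGG, the GC box bound by Sp1, and CACGTG, an E-box. CCAAT was present in 5 of the 6 genes and in 5 of their 7 windows, where 37.4% of 32851 windows of all genes hold it. GGGCGG was also present in 5 of 6 genes and 5 of 7 windows, where 35.7% of all windows do. TCACNCCA was found in Hmgcs1 alone, 137 bases before the start, where 4.36% of all windows hold it. TCACNTGA and CACGTG were found in 0 of the 6 genes, against 4.18% and 7.15% of all windows. Within the 150 bases before the start, the same numbers of genes and windows held each motif, against 24.5% of all windows for CCAAT and 28.6% for GGGCGG. In the later sterol enzymes CCAAT was present in 10 of 10 genes with a window and in 10 of their 12 windows. No match overlapped a match to another motif in these 6 genes. A match describes the letters only; no binding was measured.

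The bases before the start of 4 genes are printed with the matches in capitals, read along the gene: Hmgcs1, the one with a sterol element-like match, whose last CCAAT and last GC box lie after the start and are not printed; Mvk, with 5 CCAAT matches; and Idi1 and Mvd, which had the largest and the smallest of the 9 differences, each with 2 CCAAT matches and 1 GC box. CCAAT on the other strand reads ATTGG and the GC box CCGCCC. The Hmgcs1 window is chr13:119690101-119690350 (plus strand), that of Mvk chr5:114444019-114444268 (plus), that of Idi1 chr13:8885356-8885605 (plus) and that of Mvd chr8:122443423-122443672 (minus), all on GRCm38.p6.
Hmgcs1: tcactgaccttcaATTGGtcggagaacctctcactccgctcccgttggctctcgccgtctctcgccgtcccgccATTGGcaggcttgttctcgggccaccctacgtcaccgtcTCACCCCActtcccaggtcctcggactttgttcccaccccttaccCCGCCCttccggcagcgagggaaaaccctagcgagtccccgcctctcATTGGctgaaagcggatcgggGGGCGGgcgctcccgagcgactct
Mvk: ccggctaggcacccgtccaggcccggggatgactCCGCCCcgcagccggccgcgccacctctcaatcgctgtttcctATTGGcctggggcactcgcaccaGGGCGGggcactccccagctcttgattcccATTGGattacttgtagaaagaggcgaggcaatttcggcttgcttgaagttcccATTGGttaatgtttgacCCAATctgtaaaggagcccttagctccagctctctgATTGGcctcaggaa
Idi1: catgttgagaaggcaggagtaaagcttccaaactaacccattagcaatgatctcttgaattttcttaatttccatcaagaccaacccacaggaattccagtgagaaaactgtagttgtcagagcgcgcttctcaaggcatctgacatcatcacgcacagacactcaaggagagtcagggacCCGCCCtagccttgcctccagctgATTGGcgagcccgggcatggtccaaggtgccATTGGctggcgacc
Mvd: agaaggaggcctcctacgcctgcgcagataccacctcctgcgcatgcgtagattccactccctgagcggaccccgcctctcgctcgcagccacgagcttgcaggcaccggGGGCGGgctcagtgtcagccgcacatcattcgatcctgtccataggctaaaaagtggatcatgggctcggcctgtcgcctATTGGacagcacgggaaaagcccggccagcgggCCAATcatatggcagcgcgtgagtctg

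**Figure D4:**
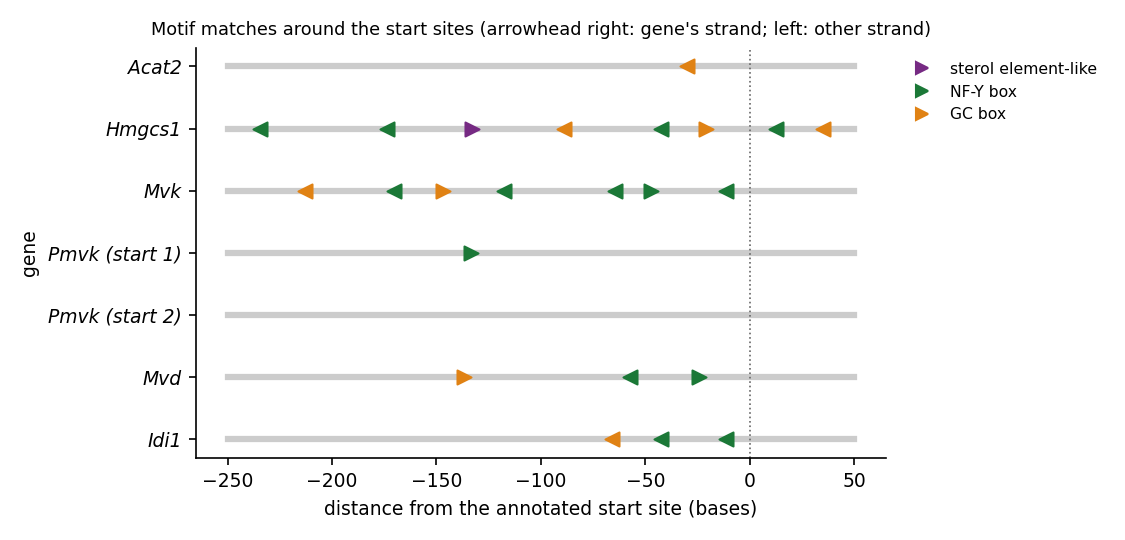
Matches to 3 of the motifs (colour) in the 7 windows of 6 genes (vertical axis) by distance from the annotated start site in bases (horizontal axis); arrowheads to the right mark the gene's strand and to the left the other strand. Hmgcs1 and Mvk carry the most matches, Mvd and Idi1 carry 3 each, with differences of 0.12 and 1.502, and the second Pmvk start has none.

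Across the processing settings the 9 differences kept a positive sign. Counting at 1.5-fold gave between 5 and 8 genes higher over the scalings, normalizations and probe rules tried, and 0 lower each time. The share of all genes that much higher moved too. It ran from 8.42% after normexp, where 6 of the 9 were higher, to 24.2% with spike-in scaling, where 8 were. With spike-in scaling the median of the 9 was 1.08, the highest, and after normexp background correction 0.68, the lowest. Hmgcs1 moved most with the background correction, to 0.72 after normexp.

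**Figure D5:**
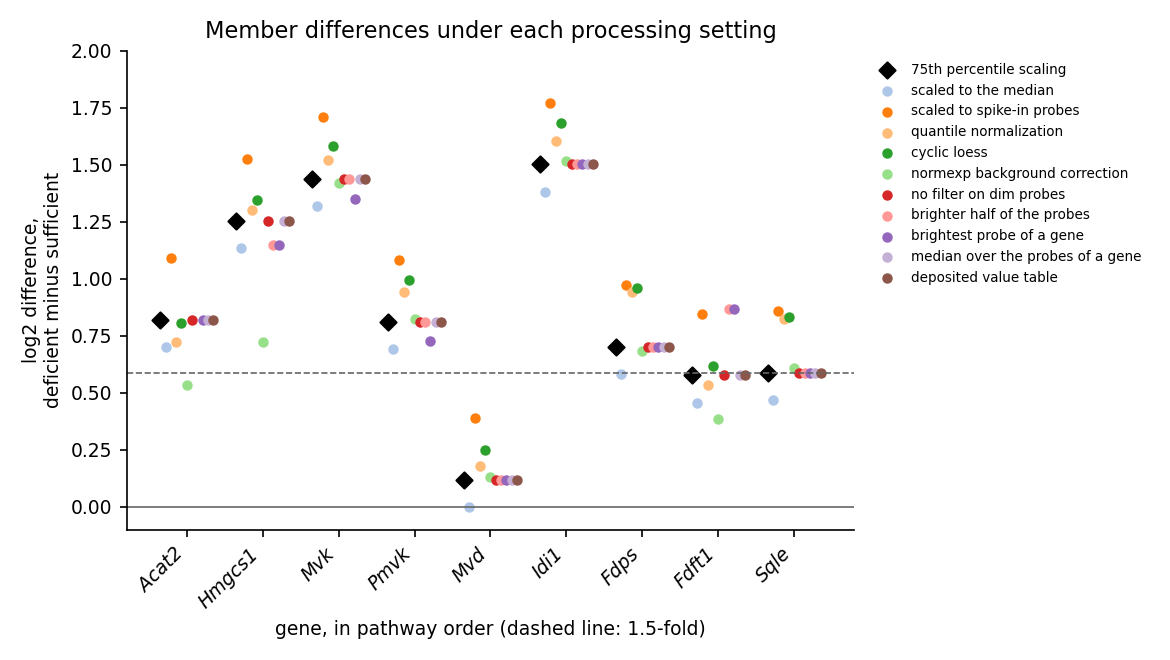
Log2 difference of each of the 9 genes (vertical axis: choline-deficient minus choline-sufficient; horizontal axis: genes in pathway order) under the main scaling (black diamond) and 10 alternatives (coloured circles); the dashed line is 1.5-fold. Idi1 and Mvk stay above 1.3 throughout, Mvd runs from 0.0002 to 0.39, and Acat2, Fdps, Fdft1 and Sqle lie on both sides of the line.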

How the data were processed

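The submitters' processing notes name Agilent Feature Extraction, version 12.1.1.1. Per the file headers, the software subtracted background and a spatial trend to give the processed signal intensity, and the arrays were not normalized to each other; probe positions are on mm9. The ratio in the deposited table of values is each processed signal divided by its array's 75th percentile, 1609 without choline and 1280 with it; its columns have medians of 0.0358 and 0.0337.

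Excluded were control spots and 92 and 86 outlier spots. Repeat spots of 1 probe were averaged, and genes were means of measured probes (26461 of 39426). A gene's error is the mean of its probes' errors, each combining the scanner errors on both arrays. Python 3.11.15, numpy 2.4.6, pandas 2.3.3, R 4.3.3, limma 3.58.1 (normexp offset 50, quantile, cyclic loess) and data.table version 1.17.8 were used. Alternatives were median and spike-in scaling, the 3 limma methods, other probe rules and filters, the deposited ratios, and 2 other count rules. The functions were tested on simulated data. Named are all 9 genes, their isozyme genes and up to 4 genes with the largest absolute differences from each of 4 other pathway lists, apart from a few that are not reported here; Lbr, Sc5d and the marker genes were named after their values were seen. The members and lists were chosen with earlier results of these data known. Exon annotation on mm9 was not used here. The number of arrays limits the precision. The isozymes' protein sequences were not used here.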

Additional observations from a re-analysis of the deposited data

How the results depend on the processing

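Over 10 alternatives, 72 of 89 values of the 9 genes moved by less than their scanner error, 17 by more and 0 changed sign; Acat2 had no value when only probes brighter than the median were kept. The median of the 9 genes, 0.81 with the main processing, was 1.08 with spike-in scaling, which adds a constant to every gene, and between 0.68 and 0.96 otherwise. The count at least 1.5-fold higher was 7 with the main processing, 5 with median scaling, 6 after normexp, 8 with spike-in scaling, cyclic loess or the brightest probe, and 3 at 2-fold. The matching shares of all genes were 14.8% with the main processing, 12.0% with median scaling and 8.42% after normexp. They were 24.2% with spike-in scaling, 16.3% with cyclic loess, 15.2% with the brightest probe and 7.67% at 2-fold. The count with a difference over 2 times its error was 8, with no share of all genes worked out. Fdft1 was 0.87 with its brighter probe and 0.38 after normexp, and Sqle was 0.47 with median scaling and 0.82 after quantile normalization, on opposite sides of 1.5-fold. Acat2 fell under that size after normexp (0.54) and Fdps with median scaling (0.58). No paired analysis was possible because each group has 1 array.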
